A study of Mus musculus with 2 samples.

Results

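The 8 genes described here encode secreted or membrane-bound effectors of immune cells and the receptors that bind some of them: the ligands Ifng, Tnf, Fasl, Tnfsf10 and Il2, and the receptors Fas, Tnfrsf1a and Tnfrsf1b. They were taken by symbol from the gene names of 8 single-cell count matrices that hold 32432 genes, and all 8 symbols were found. The matrices come from B16-F10 melanomas, a mouse melanoma line, grown in the skin of male mice aged 8 to 12 weeks after intradermal injection of 1000 cells in Matrigel into both legs. The knockout group (Trex1 iKO, 4 hashtagged samples) was Trex1 fl/fl with 1 R26CreERT2 knock-in allele, and the control group (4 hashtagged samples) was Trex1 wt/fl with the same CreERT2 allele, so the controls are heterozygous for the floxed allele. Both groups received 1 mg of tamoxifen by intraperitoneal injection from day 5 for 3 days, and live CD45+ cells were sorted from tumours harvested on day 14. R26CreERT2 is a ubiquitous driver, so recombination is not limited to 1 cell type of the host. The series asks how induced loss of host Trex1, a DNA exonuclease that limits cytosolic DNA sensing, bears on the immune cells of a tumour.

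All iKO samples were run in 1 pool and all control samples in another. A difference between genotypes cannot be told apart from one between pools. The labels do not say whether each hashtag is 1 mouse, and the p-values below measure the spread between these samples, which may be technical. Of 23731 barcodes, 22052 cells were kept, with sample totals of 19370674 to 96457227 UMIs in iKO and 17111065 to 33319752 in control. No barcode was shared within a pool and 45 were shared between the pools. Median UMIs per cell were higher in the iKO samples (12535.5 to 14221) than in the controls (5794 to 11490). Trex1 gave 2 UMIs in all, both in control sample 2, so the deletion could not be checked from these counts. Ptprc, the gene of CD45, had a UMI in 90.2% to 98.5% of the cells of each sample. The labels call the cells tumour-infiltrating lymphocytes, but myeloid classes made up 46.3% to 82.4% of a sample and lymphoid classes 9% to 50.2%. Cells were grouped into classes by marker genes, each named by the cell type it resembles, and levels are given as CPM, the UMIs of a gene relative to the UMIs of the class in that sample. In classes with enough samples to test, that total covered the genes tested and was scaled by TMM, a normalization between samples. For NK-like, cDC1-like and pDC-like cells and for single clusters it was the plain total of all UMIs, so comparisons with them mix 2 scales. CD8 T-like cells numbered 4091 in iKO and 891 in control, and monocyte/macrophage-like cells 6029 and 2983. CD8 T-like cells made up 32.8% and 43.3% of iKO samples 1 and 2 but 11.8% and 8.99% of iKO samples 3 and 4, against 3.34% to 21.6% in the controls.

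Interferon gamma (Ifng) is released by activated T and NK cells and switches on antigen presentation and guanylate-binding protein genes. TNF, FAS ligand (Fasl) and TRAIL (Tnfsf10) belong to the TNF superfamily: FAS ligand binds FAS, whose death domain recruits FADD and caspase-8, while TNF binds TNFR1 (Tnfrsf1a), which carries a death domain, and TNFR2 (Tnfrsf1b), which does not and signals to NF-kappaB. IL-2 (Il2) is a growth factor made mainly by activated CD4+ T cells, and regulatory T cells depend on it.

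The classes with the highest level differed by ligand. Ifng was highest in CD8 T-like cells at 444.8 ± 240.4 CPM (SD, n = 8 samples of both genotypes), followed by NK-like cells at 333.7 ± 291.1 CPM (n = 4 samples with at least 20 cells), and the ranges of these 2 classes overlapped. CD4 T-like cells followed at 66.8 ± 29.2 CPM and Treg-like cells at 25.7 ± 12.7 CPM, and monocyte/macrophage-like cells were lowest at 6.54 ± 4.03 CPM. Ifng and the other members were left out of the variable genes from which the clusters were made. These class levels are a description. Fasl was highest in NK-like cells at 132.4 ± 12.9 CPM (119.9 to 149.5), above every CD8 T-like sample, where the mean was 74.4 ± 19.5 CPM. CD4 T-like cells held 46.8 ± 13.1 CPM of Fasl, and no sample of the classes below it reached its lowest sample of 36.1 CPM. Tnfsf10 was spread over NK-like cells (60.6 ± 41.4 CPM), Treg-like cells (47.9 ± 15.7 CPM), CD8 T-like cells (47.8 ± 9.26 CPM) and CD4 T-like cells (33.5 ± 17 CPM), whose ranges overlapped. The remaining classes averaged 7.32 CPM of Tnfsf10 or less.

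Tnf followed another order. Neutrophil-like cells held the most, 154 ± 63.3 CPM, then CD4 T-like cells (98.3 ± 45.0 CPM), cDC2-like cells (61.1 ± 24.4 CPM) and monocyte/macrophage-like cells (59.1 ± 16 CPM), each overlapping the next. CD8 T-like cells averaged 18.5 ± 5.49 CPM of Tnf and NK-like cells 6.71 ± 5.95 CPM. Il2 was sparse: CD4 T-like cells held 16 ± 9.94 CPM, from 0 to 33.0 CPM over the samples, and the next class, CD8 T-like cells, 1.98 ± 1.45 CPM. Over all kept cells there were only 148 Il2 UMIs in control and 196 in iKO.

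**Figure D1:**
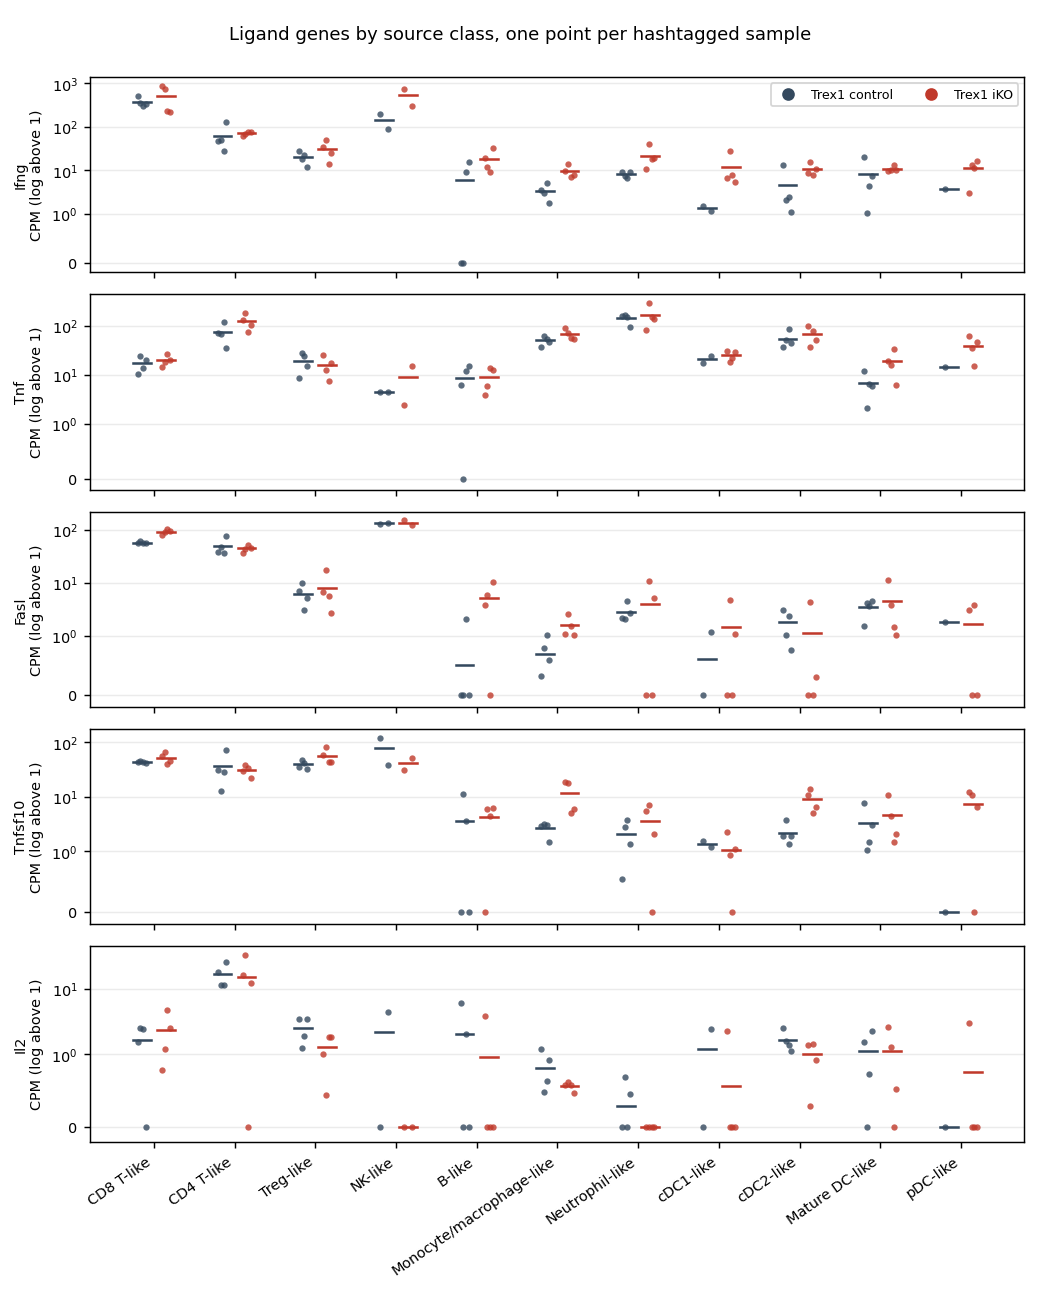
Level of each ligand (CPM, log scale above 1) in every class; each point is 1 sample, with control and iKO apart. Ifng and Fasl lie in CD8 T-like, NK-like and CD4 T-like cells, and Tnf is highest in neutrophil-like cells.

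The total of each ligand depends on the size of a class as well as on its level. Over all kept cells, fewer cells of a type and less RNA per cell cannot be told apart. CD8 T-like cells held 79.8 ± 19.9% of the Ifng UMIs in the iKO group and 82.0 ± 10.9% in the controls (n = 4 each; p = 0.83, exact two-sided permutation test). Their share of Fasl UMIs was 78.9 ± 15.6% in iKO and 52.9 ± 17.7% in control (p = 0.114, exact permutation test), while cells of unnamed clusters held 6.66% and 20.2%. Their share of Tnfsf10 UMIs was 50.7 ± 24% and 44.9 ± 16.3% (exact permutation p = 0.743), and monocyte/macrophage-like cells held 26.4 ± 9.26% and 11.2 ± 6.21%. For Tnf the leading source was the monocyte/macrophage-like class, with 69.5 ± 6.33% in iKO and 48.9 ± 14.7% in control (p = 0.0857, exact permutation test), and neutrophil-like cells held 6.34% and 22.8%. Monocyte/macrophage-like cells also held the largest mean share of Il2 UMIs over the 8 samples, 29.7 ± 5.75% in iKO and 25.7 ± 18.2% in control (p = 0.743, exact permutation test), while CD8 T-like cells held 38.0% and 15.2%. At 3000 UMIs per cell, however, only 0.137% of these cells in iKO and 0.201% in control had an Il2 UMI. B-like cells gave 0.5 ± 1% and 0.658 ± 1.32%, and held only 1 and 5 Il2 UMIs before thinning. Whether the Il2 of monocyte/macrophage-like cells is background was not tested. None of the 5 source shares reached 0.0286, which is the smallest p that 4 against 4 samples allow.

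Genotypes were compared within each class with edgeR on summed UMIs. Of 43 pairs of a member and a class with enough counts, 5 passed an adjusted p of 0.05, all higher in iKO, against 4.16% of all pairs of a gene and a class in the same 7 classes (2.43% called higher). The 5 were Fasl in CD8 T-like cells, Ifng, Tnfsf10 and Tnfrsf1b in monocyte/macrophage-like cells, and Tnfsf10 in cDC2-like cells. The fold change was positive in 36 of the 43 pairs, against 48.7% of all pairs, and 14 had an unadjusted p under 0.05, against 18.3%. In 7 of the 43 pairs the samples of the genotypes did not overlap, against 11.2% of all pairs: the 5 called, Tnfrsf1a in monocyte/macrophage-like cells and Ifng in neutrophil-like cells.

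**Figure D2:**
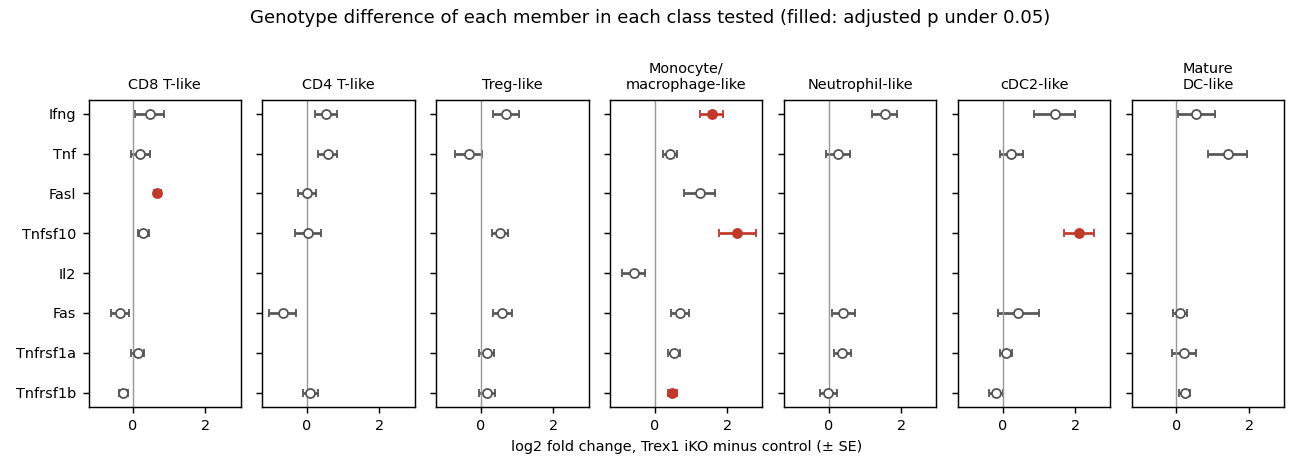
Log2 fold change (iKO minus control) with its standard error for each member and class tested with edgeR; filled points passed an adjusted p of 0.05. The 5 filled points all lie to the right of 0, from 0.49 for Tnfrsf1b to 2.27 for Tnfsf10 in monocyte/macrophage-like cells.

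Fasl rose in CD8 T-like cells of the iKO samples. The controls held 55.4, 60.0, 56.7 and 56.3 CPM of Fasl in samples 1 to 4, and the iKO samples 80.2, 90.4, 101.1 and 95.3 CPM. All iKO samples lay above all controls, a separation that 13.4% of genes of this class show, and the controls differed little among themselves (57.1 ± 1.99 CPM, against 91.8 ± 8.86 CPM in iKO). The log2 fold change was 0.67 ± 0.10 (SE; edgeR adjusted p = 0.00298). In this class 1 of the 7 members tested was called, against 5.34% of all genes, and the median log2 fold change of the 7 was 0.21, against -0.00949 for all genes. The call remained when any single sample was left out. Without iKO samples 1 and 2, an omission chosen after seeing the data, the log2 fold change was 0.78 (adjusted p = 0.00285). It was lost when every cell was thinned to 3000 UMIs (0.55, edgeR adjusted p = 0.0746).

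The share of CD8 T-like cells with a Fasl UMI, at 3000 UMIs per cell, was 23.7 ± 1.63% in iKO and 17.6 ± 2.11% in control (n = 4 each; exact permutation p = 0.0286, the smallest possible; 4015 of 4091 and 837 of 891 cells were deep enough). Without thinning the shares were 61.7% and 48.6%, at median depths of 7620 to 18400 and 8030 to 13000 UMIs. B-like cells, which should lack Fasl, gave 1.44% and 0.116% after thinning, at median depths of 4490 to 4900 and 3550 to 3930 UMIs before it. Neither this share nor that of any of the other 7 members passed after adjustment over the 8. Even at the smallest possible p, a single member could not have passed this adjustment. Fasl UMIs were spread over many cells: the top 10% of CD8 T-like cells held 31.3% to 43.5% of them in a sample, and no cell had more than 12.

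Different clusters made up the class in the 2 genotypes: clusters 0 (34.8% of its cells), 11, 8 and 23 in iKO, and clusters 8 (33.9%), 20 (33.3%) and 11 in control. Within clusters 8 and 20, the only ones with 20 cells in at least 3 samples of each genotype, Fasl averaged 94.2 CPM in iKO and 73.9 CPM in control and was higher in iKO in both. Summed markers of monocytes and macrophages in CD8 T-like cells were 1138 to 1394 CPM in iKO and 576 to 835 CPM in control. Of the 9 tested, however, only 3 had a positive fold change, 1 was called higher and 1 lower. Neutrophil markers summed to 81.0 to 115 CPM in iKO and 278 to 464 CPM in control, and all 4 tested were called lower. T cell markers were higher, at 5908 to 6216 CPM in iKO and 3966 to 5079 CPM in control (3 of 5 called), as were CD8 T cell markers at 4027 to 4476 and 3038 to 3696 CPM (2 of 5 called). Their part in the Fasl result was not tested. Monocyte/macrophage-like cells themselves held 1.59 CPM of Fasl in iKO and 0.692 CPM in control.

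Ifng did not show one direction in CD8 T-like cells. The controls held 512.3, 350.1, 305.7 and 329.5 CPM, and the iKO samples 877.5, 724.7, 235.0 and 223.5 CPM. Samples 1 and 2 of the iKO group were the highest of the 8 and samples 3 and 4 the lowest, so the genotypes overlapped fully and the log2 fold change was 0.47 ± 0.40 (edgeR adjusted p = 0.571). Without iKO samples 1 and 2, an omission chosen after seeing the data, it was -0.72 (adjusted p = 0.0409). This omission leaves only the lowest samples in iKO, so the sign follows from the choice and the p-value is not a test. At 3000 UMIs per cell, 47.2 ± 17.3% of iKO and 38.7 ± 6.39% of control CD8 T-like cells had an Ifng UMI (exact permutation p = 0.4), against 69.4% and 58.6% before thinning and 4.74% and 2.24% of thinned B-like cells. A few cells held most of the transcript: the top 10% of CD8 T-like cells had 52.8% to 70% of its Ifng UMIs, and 1 cell had 732. Cells with and without an Ifng UMI did not differ in Fasl in a common direction: at 3000 UMIs per cell, Fasl was found in 31.9% and 22.7% of them in iKO sample 3, 21.7% and 22.0% in iKO sample 1, and 10.3% and 18.2% in control sample 4.

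In monocyte/macrophage-like cells, Ifng was low but higher in every iKO sample. The controls held 3.48, 3.02, 5.30 and 1.81 CPM and the iKO samples 9.81, 13.98, 7.21 and 7.69 CPM, a log2 fold change of 1.56 ± 0.33 (edgeR adjusted p = 0.0210). Most control cells of this class lay in clusters 1 (24.7%), 2 (22.1%) and 7 (19.4%), and most iKO cells in clusters 3 (16%), 5 (14.6%), 10 (12.4%), 14 (12.1%) and 19 (8.69%). In this class 3 of the 8 members were called, against 11.3% of all genes, with a median log2 fold change of 0.61 against -0.00202 for all genes. T cell transcripts were read in the same profiles. Cd8a, a CD8 T cell coreceptor, was at 3.18 to 8.05 CPM in control and 11.1 to 23.7 CPM in iKO, which is 0.586% to 1.68% and 1.64% to 2.67% of its level in CD8 T-like cells. Other T cell genes did not move with it in this measure: Trac averaged 2.59% of its CD8 T-like level in control and 1.67% in iKO, Cd3d 1.82% and 1.71%, and Cd3e 1.58% and 1.64%, while Cd8b1, the partner chain of Cd8a, averaged 0.787% and 1.34%. Ifng stood at 0.549% to 1.73% and 1.12% to 3.44% of its CD8 T-like level. The 5 T cell markers summed to 47.5 to 121.1 CPM in control and 60.1 to 176.7 CPM in iKO, with none at 0 in the class and none of the 5 called; of the 5 CD8 T cell markers, 1 was called higher. NK cell markers summed to 5.23 to 9.0 CPM in control and 12.9 to 29.7 CPM in iKO, and 2 were called higher. In the 5907 of 9012 monocyte/macrophage-like cells with no Cd3e, Cd3d or Trac UMI, the log2 fold change of Ifng was 1.70 (edgeR adjusted p = 0.00489). This filter did not use Cd8a, Cd8b1 or NK cell markers. The part of T or NK cell RNA in the Ifng result was not tested.

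The Ifng call in this class did not survive the loss of some samples. The adjusted p was 0.0526 without iKO sample 1, 0.0560 without iKO sample 2, 0.0649 without control sample 2 and 0.0535 without control sample 4, with log2 fold changes of 1.29 to 1.89 over all 8 omissions. Within the 6 clusters (1, 2, 7, 12, 22 and 24) with at least 20 cells in at least 3 samples of each genotype, Ifng averaged 9.66 CPM in iKO and 3.04 CPM in control and was higher in iKO in 6 of 6. Neutrophil-like cells gave a similar picture below the threshold, with 9.25, 7.63, 6.83 and 9.02 CPM in control and 10.95, 39.43, 18.22 and 19.56 CPM in iKO. The groups did not overlap, but the log2 fold change of 1.54 did not pass (edgeR adjusted p = 0.0532), in a class where 1.52% of genes were called and 6.59% did not overlap. NK cell markers in neutrophil-like cells summed to 14.9 to 25.6 CPM in control and 29.6 to 242.9 CPM in iKO, with the 1 gene tested called higher, and T cell markers to 114.1 to 169.2 and 132.1 to 284.6 CPM; their part in the result was not tested. In cDC2-like cells Ifng was 13.18, 2.14, 2.42 and 1.14 CPM in control and 8.81, 15.66, 7.88 and 10.76 CPM in iKO, where control sample 1 overlapped the iKO range (1.43 ± 0.57, edgeR adjusted p = 0.206). It passed without control sample 1 (2.55, adjusted p = 0.0165) and in cells with no Cd3e, Cd3d or Trac UMI (2.00, adjusted p = 0.0177).

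Tnfsf10, the gene of TRAIL, showed the largest fold changes of the 5 called pairs. In monocyte/macrophage-like cells the controls held 2.94, 3.18, 3.07 and 1.47 CPM and the iKO samples 19.04, 17.97, 4.97 and 5.93 CPM. The groups did not overlap (19.1% of genes in this class), and iKO samples 1 and 2 were well above iKO samples 3 and 4. The log2 fold change was 2.27 ± 0.51 (edgeR adjusted p = 0.0252). In cDC2-like cells, a dendritic cell type that presents antigen to CD4+ T cells, the controls held 1.88, 3.74, 1.38 and 1.90 CPM and the iKO samples 10.66, 13.67, 5.01 and 6.46 CPM, again without overlap (10.7% of genes). Here the log2 fold change was 2.10 ± 0.41 (edgeR adjusted p = 0.0298), 1 of 6 members called against 2.4% of genes. It rests on few counts: 19 Tnfsf10 UMIs in control, 3 to 7 per sample, against 99 in iKO. The pair was not among those called on thinned cells or in cells with no Cd3e, Cd3d or Trac UMI. Fewer pairs had enough counts to test in those 2 alternatives. Other marker lists moved in cDC2-like cells as well. Monocyte and macrophage markers summed to 2445 to 3081 CPM in iKO and 1727 to 2773 CPM in control (2 of 10 called higher). The sums of pDC markers were 618.9 to 1082 and 353.4 to 487.8 CPM, but only 2 of these 6 genes were tested and 1 was called higher. That sum was also higher in iKO in monocyte/macrophage-like cells (593.2 to 1059 against 267.4 to 426.9 CPM) and CD8 T-like cells (252.6 to 317.2 against 115.3 to 143.5 CPM). The markers of the class itself summed to 652.6 to 1794 CPM in iKO and 1744 to 2261 CPM in control, with none of the 7 called. T cell markers were 86.1 to 191.7 CPM in iKO and 82 to 264.9 CPM in control. The part of these differences in the Tnfsf10 result was not tested.

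Cluster 3, led by the interferon-induced genes Cxcl10, Rsad2, Ifit2 and Isg15, held 962 iKO and 37 control cells. It was 16% of the iKO cells of the monocyte/macrophage-like class and held 58.5% of their Tnfsf10 UMIs, and 1.24% and 23.6% in control. Cluster 3 was left out in an alternative chosen after seeing the data, because it held the most Tnfsf10 UMIs of the class. The log2 fold change of Tnfsf10 was then 1.69 (edgeR adjusted p = 0.0154). Within the same 6 clusters, which leave out most of the iKO cells, it averaged 3.41 CPM in iKO and 1.33 CPM in control, higher in 5 of 6. Relative to its CD8 T-like level, Tnfsf10 in monocyte/macrophage-like cells stood at 3.59% to 6.99% in control and 12.5% to 33.6% in iKO. In iKO this lay above all 5 T cell genes compared (0.814% to 3.04%), while in control it overlapped Trac (1.44% to 4.24%). In the cells with no Cd3e, Cd3d or Trac UMI the log2 fold change was 2.51 (adjusted p = 0.0251). The call was lost without iKO sample 1 (adjusted p = 0.0628), iKO sample 2 (0.0683), control sample 2 (0.0674), control sample 3 (0.0569) or control sample 4 (0.0781). Without both iKO samples 1 and 2, an omission chosen after seeing the data, the log2 fold change was 1.11 (adjusted p = 0.116). The cDC2-like call was lost without iKO sample 1 (adjusted p = 0.0830), iKO sample 2 (0.103) or any control sample (0.0521, 0.0658, 0.11 and 0.0925 in the order of the samples).

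Tnfsf10 in CD8 T-like cells was 43.6, 46.0, 44.0 and 40.9 CPM in control and 56.6, 66.9, 39.9 and 44.7 CPM in iKO. Only iKO samples 1 and 2 exceeded the controls, and the log2 fold change of 0.29 ± 0.16 did not pass (edgeR adjusted p = 0.332). At 3000 UMIs per cell its share of cells was 16.4 ± 1.74% in iKO and 13.3 ± 2.78% in control (p = 0.0857, exact permutation test), against 0.816% and 0.417% of B-like cells. Treg-like cells ranged from 42.8 to 81.9 CPM in iKO and 32.8 to 48.0 CPM in control (0.54, edgeR adjusted p = 0.290).

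**Figure D3:**
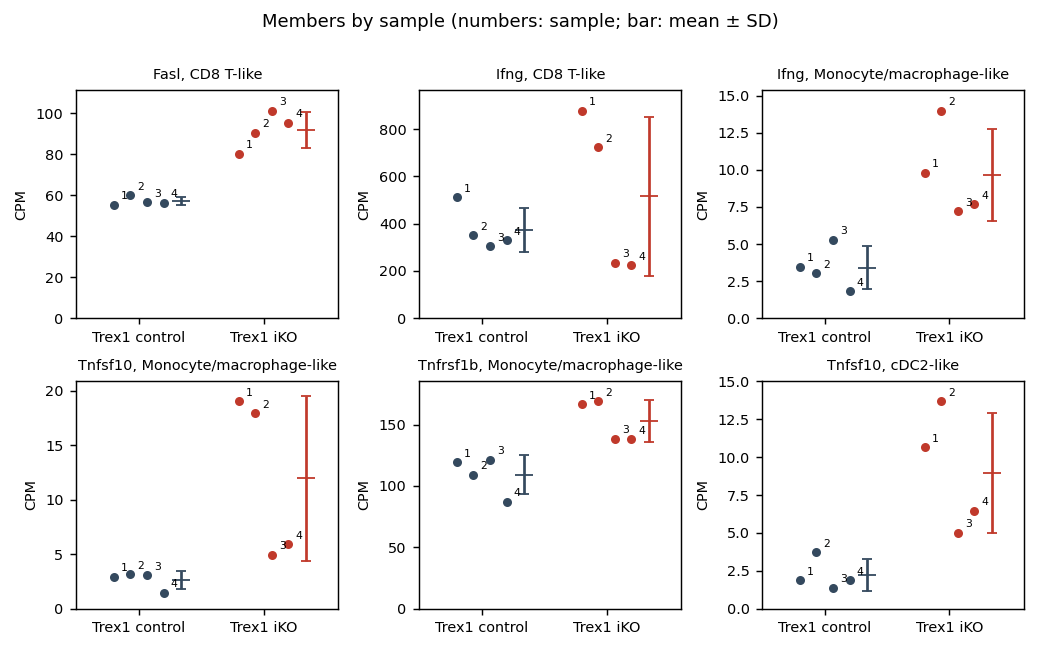
CPM in each of the 4 control and 4 iKO samples for the 5 called pairs, with the group mean and SD, and for Ifng in CD8 T-like cells. No control sample reaches an iKO sample in the 5 called pairs; for Ifng in CD8 T-like cells iKO samples 1 and 2 are highest and 3 and 4 lowest.

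Tnf, the main inflammatory cytokine of the set, passed in no class. Monocyte/macrophage-like cells held 36.9, 63.1, 54.5 and 47.9 CPM in control and 90.1, 70.5, 55.9 and 54.1 CPM in iKO (0.43 ± 0.20, edgeR adjusted p = 0.187), and the groups overlapped. In mature DC-like cells the range was 2.13 to 12.2 CPM in control and 6.23 to 34.1 CPM in iKO (1.4, adjusted p = 0.307), and in CD4 T-like cells 35.5 to 120.4 and 74.4 to 178.6 CPM (0.58, adjusted p = 0.315). Without control sample 3 the CD4 T-like difference passed (0.94, adjusted p = 0.0402). In CD8 T-like cells Tnf averaged 19.9 ± 5.08 CPM in iKO and 17.1 ± 6.28 CPM in control (0.21, adjusted p = 0.730). Il2 was tested in monocyte/macrophage-like cells, where its level was low (-0.58, adjusted p = 0.243). In CD4 T-like cells it averaged 15.4 ± 13.6 CPM in iKO and 16.6 ± 6.63 CPM in control, from 23 and 36 UMIs.

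Over all kept cells none of the 8 members passed with edgeR, against 2.53% of genes. An unadjusted p under 0.05 was reached by 2 of the 8, against 21.5% of genes: Il2 (1.54 ± 0.221 CPM in control, 0.959 ± 0.0732 in iKO; log2 fold change -0.68, adjusted p = 0.0953) and Tnfrsf1b (0.28, adjusted p = 0.115). DESeq2 called these 2. Ifng over all kept cells ran from 17.1 to 148.9 CPM in control and 25.9 to 362.6 CPM in iKO (1.58 ± 0.99, edgeR adjusted p = 0.375).

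Each receptor had its highest mean in neutrophil-like cells, and the order of the other classes differed by receptor. Tnfrsf1a was highest in neutrophil-like cells (200.3 ± 59.7 CPM), monocyte/macrophage-like cells (139.1 ± 36.9 CPM) and cDC2-like cells (98.6 ± 17.5 CPM), and every cDC2-like sample exceeded every sample of the next class, cDC1-like cells (53.9 ± 7.85 CPM). T, NK and B-like classes held 16 to 27.5 CPM. Tnfrsf1b was highest in neutrophil-like cells (201.1 ± 44.1 CPM), Treg-like cells (163.4 ± 43.8 CPM) and monocyte/macrophage-like cells (131.1 ± 27.9 CPM), which overlapped, and lowest in cDC1-like cells (13.3 ± 5.3 CPM). Fas was highest in neutrophil-like cells (101.6 ± 36.4 CPM) and mature DC-like cells (78.8 ± 17.1 CPM), the latter above every sample of the classes that follow, and CD8 T-like cells held 16 ± 5.22 CPM. Within the monocyte/macrophage-like class, Tnfrsf1b reached 509 CPM in the iKO cells of cluster 19, which is led by Ace, Ear2 and Treml4.

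**Figure D4:**
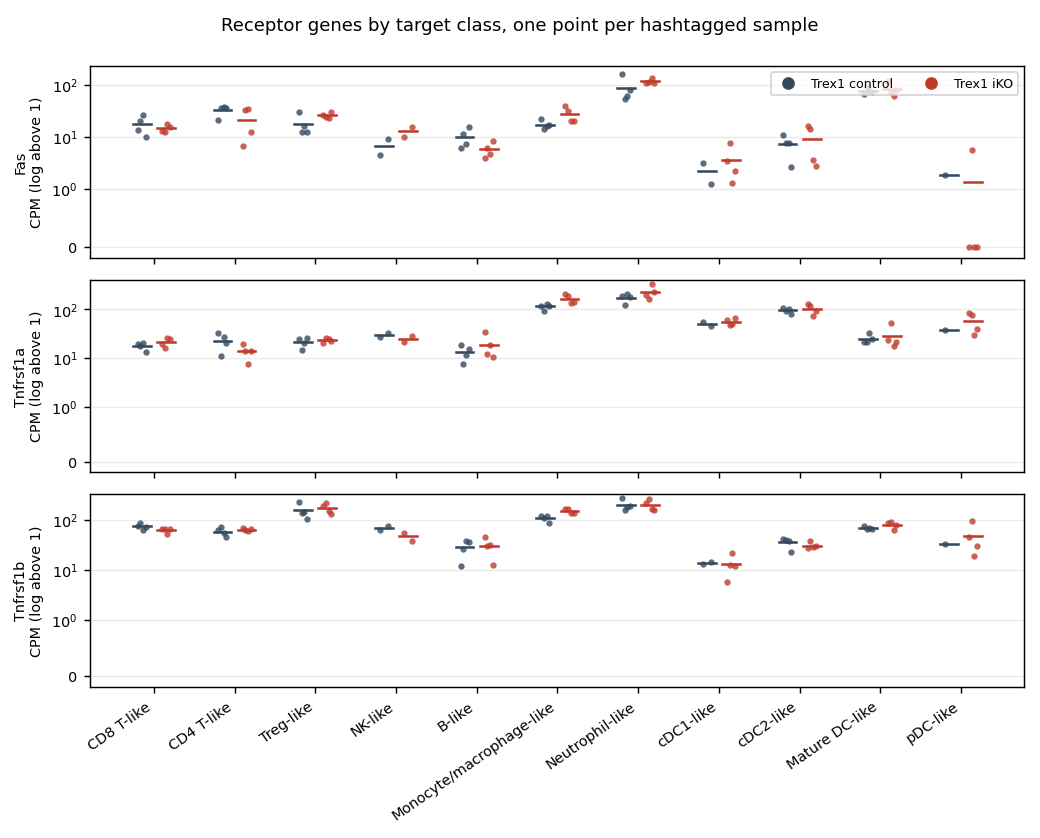
Level of each receptor (CPM, log scale above 1) in every class; each point is 1 sample, with control and iKO apart. Neutrophil-like cells have the highest mean of all 3 receptors, and Treg-like cells stand second for Tnfrsf1b.

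Tnfrsf1b rose in monocyte/macrophage-like cells. The controls held 119.3, 109.0, 121.5 and 87.2 CPM and the iKO samples 166.6, 168.8, 138.3 and 138.2 CPM, without overlap. The log2 fold change was 0.49 ± 0.12 (edgeR adjusted p = 0.0371). Cluster 19 was 8.69% of the iKO and 1.48% of the control cells and held 18.2% and 3.39% of the Tnfrsf1b UMIs. Averaged with equal weight over the 6 clusters with enough cells in both genotypes, Tnfrsf1b was 142 CPM in iKO and 111 CPM in control, a mean log2 ratio of 0.30. The fold change was 0.51 in cells with no Cd3e, Cd3d or Trac UMI (adjusted p = 0.0368) and 0.54 without cluster 3 (0.0322). The call was lost without iKO sample 1 (adjusted p = 0.0996), iKO sample 2 (0.106), control sample 2 (0.0915), control sample 3 (0.0509) or control sample 4 (0.0718).

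Tnfrsf1a and Fas in the same class stayed below the threshold. Tnfrsf1a was 117.6, 93.0, 128.5 and 116.6 CPM in control and 203.3, 185.4, 131.1 and 137.6 CPM in iKO (0.53 ± 0.16, edgeR adjusted p = 0.0606), without overlap. Fas was 21.5, 14.0, 15.8 and 16.4 CPM in control and 38.9, 31.1, 19.6 and 19.8 CPM in iKO (0.70 ± 0.24, adjusted p = 0.0872), where control sample 1 exceeded iKO samples 3 and 4. Without cluster 3 the difference in Fas was 0.37 (adjusted p = 0.178). Treg-like cells held 12.1 to 29.6 CPM of Fas in control and 23.2 to 29.2 CPM in iKO (0.60, adjusted p = 0.293).

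In CD8 T-like cells no receptor passed. Tnfrsf1b was 77.2, 88.3, 61.6 and 72.6 CPM in control and 66.4, 65.1, 52.4 and 65.8 CPM in iKO (-0.25 ± 0.12, edgeR adjusted p = 0.298). At 3000 UMIs per cell 18.0 ± 1.0% of iKO and 22.7 ± 2.31% of control cells had a Tnfrsf1b UMI (exact permutation p = 0.0286), but the shares were 52.9% and 52.6% without thinning. Fas differed by -0.34 (edgeR adjusted p = 0.498) and Tnfrsf1a by 0.14 (adjusted p = 0.733). Fasl in monocyte/macrophage-like cells, at 0.326 to 1.06 CPM in control and 1.05 to 2.62 CPM in iKO, differed by 1.24 ± 0.43 (adjusted p = 0.0889). The 21 pairs of a member and a class not given singly had log2 fold changes of -0.66 to 0.70, 17 of them positive, and adjusted p values of 0.382 or more.

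The genotype effect was compared between the 2 largest classes on the log2(CPM + 1) scale for 7 members. For Tnfsf10 it was 0.22 in CD8 T-like and 1.64 in monocyte/macrophage-like cells, a difference of -1.42 (exact permutation p = 0.0286, n = 4 each). The difference between the classes was 1.52 to 2.77 in the iKO samples and 3.46 to 4.08 in the controls, without overlap. For Tnfrsf1b the effects were -0.26 and 0.49, a difference of -0.74 (exact permutation p = 0.0286), and for Ifng 0.22 and 1.30, a difference of -1.07 (exact permutation p = 0.0571). The effects on Fasl were 0.67 and 0.59 and differed by 0.08 (exact permutation p = 0.771). None of the 7 passed after adjustment over them. As 0.0286 is the smallest p that 4 against 4 samples allow, a single member could not have passed.

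**Figure D5:**
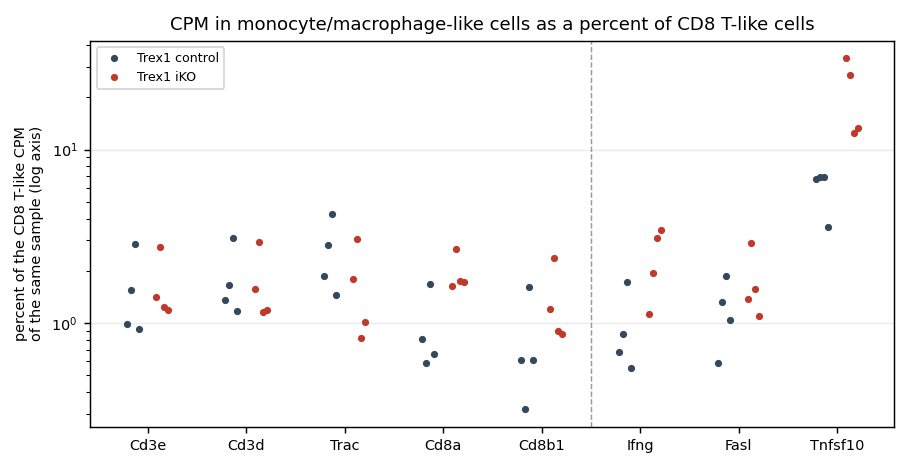
Level in monocyte/macrophage-like cells as a percent of the level in CD8 T-like cells of the same sample, for T cell markers and ligands; each point is 1 sample. Ifng lies between 0.549% and 3.44%, close to the T cell markers, and Tnfsf10 between 12.5% and 33.6% in iKO.

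Promoter sequences are shown for 3 of the 4 members called in a class, Fasl, Tnfsf10 and Tnfrsf1b, because between them they show windows with an NFAT, GAS or interferon-type motif and one with none; the 3 were chosen after their values were seen. RefSeq start sites of mouse build GRCm38.p6, which differs from the GRCm39 build of the counts, were matched for 8 of 8 members, and the 250 bases before the start were searched on both strands. Capitals mark motif matches.
Fasl, chr1:161788496-161788745, minus strand: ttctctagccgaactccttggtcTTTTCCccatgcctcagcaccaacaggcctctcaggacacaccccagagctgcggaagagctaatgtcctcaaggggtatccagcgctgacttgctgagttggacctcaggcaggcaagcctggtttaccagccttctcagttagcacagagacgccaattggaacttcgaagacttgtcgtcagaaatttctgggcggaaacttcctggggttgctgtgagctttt
Tnfsf10, chr3:27316827-27317076, plus strand: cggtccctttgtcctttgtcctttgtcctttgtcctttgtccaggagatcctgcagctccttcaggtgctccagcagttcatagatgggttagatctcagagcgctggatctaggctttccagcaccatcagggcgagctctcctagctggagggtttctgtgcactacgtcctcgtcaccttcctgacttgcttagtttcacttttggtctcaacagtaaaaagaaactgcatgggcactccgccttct
Tnfrsf1b, chr4:145246871-145247120, minus strand: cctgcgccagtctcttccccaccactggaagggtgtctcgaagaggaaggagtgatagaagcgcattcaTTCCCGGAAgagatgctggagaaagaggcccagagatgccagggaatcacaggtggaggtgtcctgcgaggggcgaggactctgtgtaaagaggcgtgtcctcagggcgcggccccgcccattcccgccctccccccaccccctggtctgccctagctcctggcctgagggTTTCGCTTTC
The Fasl window holds an NFAT core (GGAAAA, read on the opposite strand) 227 to 222 bases before the start. The Tnfrsf1b window holds a GAS motif (TTCNNNGAA) 181 to 173 bases before the start and an interferon-stimulated response element (ISRE, opposite strand) 10 to 1 bases before it. The Tnfsf10 window holds none of the 6 motifs searched, which also included NF-kappaB, AP-1 (TGANTCA) and T-box (GGTGTGA). Of the 8 members, 1 holds an ISRE, 4 a GAS motif, 3 an NFAT core and 1 an AP-1 motif, against 2.98%, 7.02%, 20.4% and 6.75% of 32851 promoters. NF-kappaB (4.65%) and T-box (3.33%) motifs are in none of the 8. A match describes letters in the window and is not evidence of binding.

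The 7 lists of genes around these ligands and receptors were read in the same fits. In monocyte/macrophage-like cells, 6 of the 17 genes of death receptor signalling tested rose and none fell (median log2 fold change 0.33), against 6.05% of all genes called higher. They included Mlkl, the executor of necroptosis (1.30 ± 0.31, edgeR adjusted p = 0.0307) and Bak1, a pore-forming protein of the mitochondrial membrane (0.62 ± 0.15, adjusted p = 0.0321). Of the 16 NF-kappaB feedback and survival genes downstream of TNF receptors, 6 rose (median 0.42). Among the 6 were the TNF receptor adaptor Traf1 (0.84 ± 0.17, adjusted p = 0.0197), the adhesion molecule Icam1 (0.73 ± 0.19, adjusted p = 0.0425) and Nfkb2 (0.67 ± 0.15, adjusted p = 0.0251). Nfkbia, Gadd45b, Tnfaip3, Bcl2a1b and Birc2 of the same list had negative log2 fold changes (-0.24 to -0.04) that did not pass. The 7 interferon gamma response genes tested had a median of 1.32, and 1 of them was called, higher in iKO. Among 8 partner receptors the common gamma chain Il2rg rose (0.99 ± 0.25, adjusted p = 0.0362) and the decoy TRAIL receptor Tnfrsf23 fell by 0.99 on the log2 scale (adjusted p = 0.0409). Of 7 genes of TNF and FAS ligand processing and mRNA decay, the intramembrane protease Sppl2a rose (0.86 ± 0.19, adjusted p = 0.0228) and the mRNA decay factor Zfp36l1 fell by 0.85 (adjusted p = 0.0321). No gene of the 3 kin ligands or the 7 IL-2 response genes tested was called.

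In CD8 T-like cells, 3 of 6 interferon gamma response genes rose, against 3.08% of all genes, among them Gbp2 (1.2 ± 0.17, edgeR adjusted p = 0.00231) and Irf1 (0.78 ± 0.12, adjusted p = 0.00368). Of 16 death receptor genes, 3 rose, among them the necroptosis kinase Ripk3 (0.71 ± 0.15, adjusted p = 0.0183) and Casp8, the initiator caspase of death receptors (0.47 ± 0.11, adjusted p = 0.0270), while the list's median was 0.00. Tnfsf4, the gene of OX40 ligand, fell by 1.15 (adjusted p = 0.00924), 1 of 4 kin ligands. None of the 16 NF-kappaB genes (median -0.20), the 7 IL-2 response genes (median -0.38), the 5 partner receptors or the 7 processing genes was called.

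Elsewhere few listed genes passed. Neutrophil-like cells had higher Gbp2 (2.61 ± 0.34, edgeR adjusted p = 0.00206), where 2 of 7 interferon gamma response genes rose, and higher Sppl2a (0.84 ± 0.17, adjusted p = 0.0222). In B-like cells 1 of 4 interferon gamma response genes tested passed, against 2.82% of all genes. Casp8 rose in Treg-like cells (0.71 ± 0.15, adjusted p = 0.0333), where 1.6% of genes were called. In cDC2-like cells Il2rg (0.77 ± 0.18, adjusted p = 0.0496) and Sppl2a (0.75 ± 0.14, adjusted p = 0.0258) rose. No listed gene was called in CD4 T-like cells (2.27% of all genes called) or mature DC-like cells (0.0412%).

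Genes with the most similar level over 18 profiles of class and genotype were named for each member, with Pearson's r of log2(CPM + 1) as a description over profiles that share libraries. Ifng was most like Gzmk (r = 0.954), Slc17a6 (0.946) and Cd160 (0.942), and Fasl most like Gzmk (0.954), Trgv2 (0.954) and Cxcr6 (0.942). Tnfsf10 was most like Cysltr2 (0.929), Spn (0.922) and Il12rb1 (0.921). Among the receptors, Tnfrsf1a was most like Arl11 (0.97), 1600010M07Rik (0.962) and Tnfrsf21 (0.951), while the closest genes of Fas (Tmem127, 0.908) and Tnfrsf1b (Tmem33, 0.874), and of Tnf (Cd44, 0.849), were less similar.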

How the data were processed

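UMI counts per gene and cell in 8 matrices were made by the authors with Cell Ranger 7.1.0, per the file headers and the submitters' processing notes, which also name GRCm39; whether introns were counted is not given in the sources used here. From the deposited counts, cells with at least 300 genes and at most 10% mitochondrial UMIs were kept (1241 removed), and 438 doublets (1.95%) were removed with Scrublet in scanpy 1.11.5 at a score of 0.25. Clusters (2000 variable genes, 30 components, 20 neighbours, leidenalg 0.10.2 at resolution 2) gave 38 groups, named from marker lists; clusters 6, 28, 35 and 37 stayed unnamed, and clusters 23 and 30, led by Prf1, were kept as CD8 T-like and left out in an alternative chosen after seeing the data. The 92 spike-in features had no counts.

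Counts were summed per sample and class (at least 20 cells, at least 3 samples per genotype) and tested with edgeR 4.0.16 (quasi-likelihood, TMM, filterByExpr, Benjamini-Hochberg over all genes of a class) in R 4.3.3. NK-like, cDC1-like and pDC-like cells had too few samples. The fit was first checked on simulated counts with known changes. Shares of cells were compared after thinning to 3000 UMIs, source shares and class differences with exact two-sided permutation tests. Summed counts differed between the hashtagged samples of a genotype (chi-square over degrees of freedom 8.15 to 238). This does not show that they are separate animals. Same-numbered samples of the 2 genotypes are different mice and their deviations correlated at 0.601, 0.341, 0.0689 and 0.671 over all kept cells and at 0.32, -0.0428, -0.0423 and 0.336 in monocyte/macrophage-like cells; the labels tie no number to a shared litter, batch or day and not every pair correlated, so the numbers were not taken to pair the samples. Named genes were the 8 members and, for each list and class, at most 3 called genes with the largest fold change. Some listed genes that this rule names are not reported here. Members and lists were chosen with earlier results of these data known. Alternatives were DESeq2 1.42.0, no low-count filter, a replicate block, at least 50 cells, doublets kept, thinned cells, cells with other-lineage UMIs left out, other thinning depths and pseudocounts, and each sample left out. For other-lineage UMIs, monocyte/macrophage-like and dendritic cells with a Cd3e, Cd3d or Trac UMI were left out. So were lymphoid and neutrophil-like cells with a Lyz2, C1qa or C1qb UMI. Leaving out cluster 3, the monocyte/macrophage-like cluster with the most Tnfsf10 UMIs, was an alternative chosen after seeing the data.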

Additional observations from a re-analysis of the deposited data

Results flagged for a closer look

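Among 128 groups of 4 samples examined, 8 held a sample far from the other 3; chance gives about 1 in 20. Fas in CD4 T-like control cells had a lowest sample of 21.09 CPM, the others lying at 35.46 to 37.56 CPM. Fas in neutrophil-like iKO cells had a highest sample of 136.6 CPM against 108.1 to 110.4 CPM. In cDC2-like control cells, Ifng reached 13.18 CPM in 1 sample and 1.139 to 2.423 CPM in the others. Tnf over all kept iKO cells was 41.35 CPM in the lowest sample and 50.21 to 51.31 CPM in the others, and in neutrophil-like control cells 92.44 CPM against 151.1 to 162.9 CPM. Tnfrsf1a in mature DC-like iKO cells was 51.72 CPM in the highest sample and 17.79 to 23.06 CPM in the others. Tnfrsf1b in CD8 T-like iKO cells was 52.35 CPM in the lowest sample and 65.07 to 66.44 CPM in the others. Tnfsf10 in monocyte/macrophage-like control cells was 1.466 CPM in the lowest sample, against 2.937 to 3.178 CPM.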

How the results depend on the processing

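The 5 calls within classes became 7 without the low-count filter, 8 with DESeq2, 6 with a replicate block (5 of them shared, plus Fas in monocyte/macrophage-like cells at 0.64), 4 of 28 pairs tested on thinned cells, 4 of 14 pairs tested in 3 classes with other-lineage cells left out (CD8 T-like cells not among them), and 1 to 6 when a sample was left out: 1 without iKO sample 2, control sample 2 or control sample 4, 2 without iKO sample 1 and 3 without control sample 3. Without iKO samples 1 and 2, chosen after seeing the data, 2 pairs were called. Fasl in CD8 T-like cells passed in 15 of 16 alternatives, Ifng, Tnfsf10 and Tnfrsf1b in monocyte/macrophage-like cells in 12, 11 and 11 of 17, and Tnfsf10 in cDC2-like cells in 7 of 14. Over all kept cells DESeq2 called 2 members and the other alternatives 0.

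Some differences changed sign, none of them called by edgeR with all samples; the cause was not tested. Without iKO samples 1 and 2, CD8 T-like Ifng was -0.72 and Tnfsf10 -0.0438. CD8 T-like Tnf ran from -0.0410 to 0.483 over the samples left out, and Tnfrsf1a was -0.0294 on thinned cells. The difference in the share of CD8 T-like cells was -0.118 percentage points for Tnf at 1500 UMIs, -0.0604 for Il2 and -0.517 for Tnfrsf1a at 5000 UMIs, and 0.305 for Tnfrsf1b without thinning. The difference in source share was 14.4 percentage points for Ifng on thinned cells, and over the samples left out -7.87 to 5.02 for Ifng, -2.52 to 13.4 for Tnfsf10 and -0.692 to 12.6 for Il2. The class difference of the genotype effect was -0.112 for Fasl at a pseudocount of 0.5, and over the samples left out -0.0402 to 0.258 for Fasl and -0.398 to 0.104 for Tnf. Low levels limit Il2 in every class and Fasl and Tnfsf10 outside T and NK-like cells.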
